A study of Mus musculus with 6 samples.

Results

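The tricarboxylic acid cycle enzymes described here are the products of 9 genes (Cs, Idh2, Idh3a, Ogdh, Dlst, Sucla2, Suclg1, Fh1 and Mdh2), taken by symbol from a table of 21436 mouse genes. The rule uses the symbols alone, but the set was drawn up with earlier results of these data known. Expression was measured by RNA sequencing in 6 libraries of 3T3-L1, a wild-type mouse embryonic fibroblast line that can be induced to form adipocytes. All cells were held for 72 h in an adipogenic medium with 2 µM rosiglitazone, 1 µM dexamethasone, 0.5 mM IBMX, 10 mg/L insulin and 10% serum, in the lower chamber of a Transwell. The 3 "alone" libraries had no human cells in the upper chamber, and the 3 "co-culture" libraries had human umbilical cord mesenchymal stem cells in an insert with 0.4 µm pores, so both groups carried the full differentiation cocktail. The comparison asks how expression in the mouse cells differed when the human cells were present. The labels do not state whether replicates were separate cultures, so the p-values reflect only the spread among these libraries, which may be technical.

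The cycle runs in the mitochondrial matrix. Acetyl-CoA is joined to oxaloacetate and oxidised to carbon dioxide, and the reduced cofactors made on the way feed the respiratory chain. In cells that make fat, citrate also leaves the mitochondrion to supply acetyl-CoA and reducing power for fatty acid synthesis, so the cycle serves both oxidation and synthesis, and intermediates that leave must be replaced from pyruvate or amino acids.

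Expression is given as deposited, in FPKM, which scales the fragments counted for a gene by its length and by the library total. Library totals recovered from them ran from 29603755 reads (co-culture replicate 1) to 38357563 reads (alone replicate 3), and the 9 genes had between 1585 and 17135 reads each per library. All 8 fibroblast and preadipocyte markers were above 1 FPKM on average, while the 5 adipocyte markers in the table (Adipoq, Plin1, Cidec, Cfd and Cd36) were below 0.1 FPKM in both groups, so defining transcripts of mature adipocytes were near 0. The 13 protein-coding genes of the mitochondrial genome took 4.40% to 4.62% of reads alone and 4.82% to 4.997% in co-culture, without overlap. Summed over 6 blood cell genes, of which 4 averaged at least 1 FPKM, levels were 17.2 to 31.5 FPKM alone and 3.71 to 18.9 FPKM in co-culture. Of the 4, Hbb-bs and Hba-a1 were called lower (limma adjusted p = 0.00697 and 0.0407) and S100a8 and S100a9 were not called (0.0741 and 0.0535). Hbb-bs and Hba-a1 were at 0 FPKM in co-culture replicate 1. Their means were 3.64 and 1.98 FPKM alone but 0.822 and 0.844 FPKM in co-culture, so they reached a mean of 1 FPKM only through the alone libraries. Hbb-bt (0.841 and 0.847 FPKM) and Ly6g (0.0389 and 0.0664 FPKM) averaged below 1 FPKM and were not tested. These genes were named after their values were seen. The part of the mitochondrial reads or of the blood cell genes in the results below was not tested.

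Of the 9 enzymes, 1 was called as differing between the groups, and the differences in their means were small. A gene that was not called was not thereby shown to be unchanged. Of the 9 genes, 0 were called higher and 1, Mdh2, was called lower in co-culture, at an adjusted p below 0.05 (limma on log2(FPKM + 1), Benjamini-Hochberg over 10055 genes whose mean reached 1 FPKM). Across all of these genes 13.9% were called higher and 17.9% lower, 31.8% in either direction, beside 11.1% of the 9 members. Whether these shares differ was not tested. At an unadjusted p below 0.05, 0 members were higher and 2 lower, and limma-voom on the recovered reads called 0 in either direction. As a percent of a member's alone mean, single libraries ranged from 88.6% (Idh3a, co-culture replicate 1) to 107.2% (Ogdh, co-culture replicate 2) over both groups. In bulk libraries, fewer cells of a type and less RNA per cell cannot be told apart.

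The median log2 change of the 9 genes was -0.03, and that of all tested genes -0.004. In size, the median change of the members was 0.04 on the log2 scale against 0.10 for all tested genes, a group that includes low genes with more counting noise. The groups did not overlap for 4 members (Ogdh higher, and Idh3a, Dlst and Mdh2 lower), against 46.1% of all tested genes. The 95% confidence intervals of the 9 changes lay within a fall of 12.3% (Idh3a) and a rise of 12.3% (Ogdh), as back-transformed from the log2(FPKM + 1) scale. Replicates were close together, with a median coefficient of variation over the members of 2.16% alone and 2.44% in co-culture. All tested genes had 4.86% and 4.15%, again with low genes of more counting noise among them, while each member was above at least 63.8% of tested genes in mean FPKM.

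**Figure D1:**
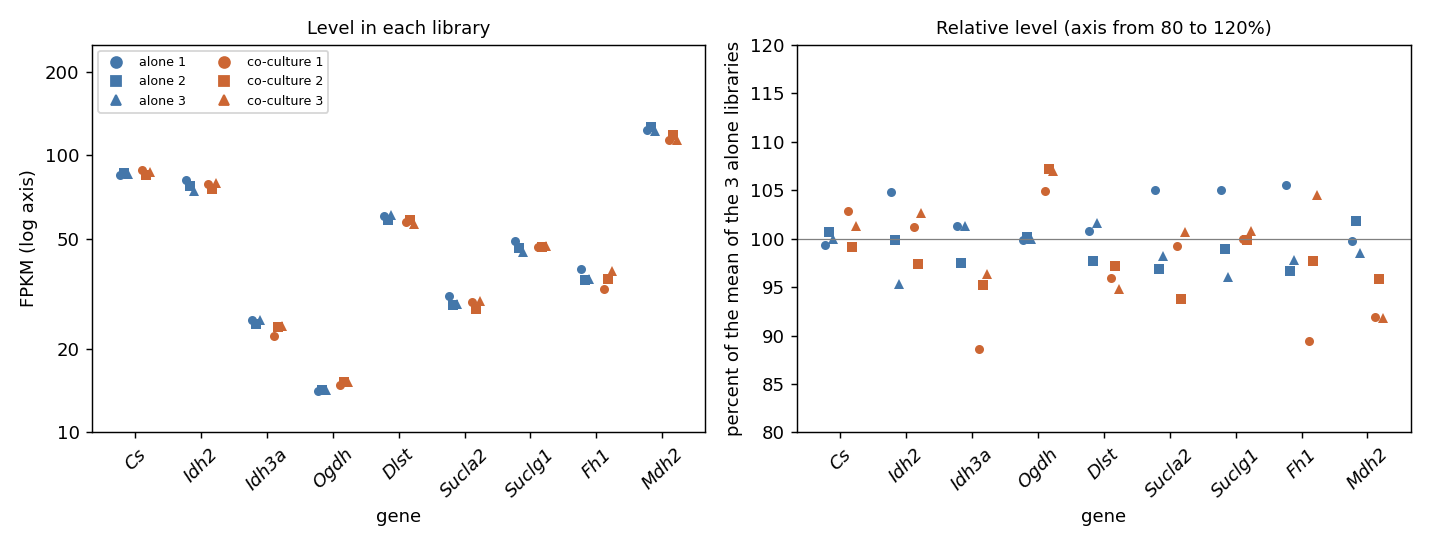
Each symbol is 1 library (blue alone, orange co-culture; circle, square and triangle for replicates 1 to 3). The left panel gives FPKM on a log axis and the right panel each value as a percent of the mean of the 3 alone libraries, on an axis from 80 to 120%. The 3 co-culture libraries sit above the alone libraries for Ogdh and below them for Idh3a, Dlst and Mdh2, and the groups mix for the other 5 genes.

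Citrate synthase, encoded by Cs, catalyses entry of acetyl-CoA into the cycle. Its level was 84.9, 86.1 and 85.5 FPKM in alone replicates 1 to 3 and 88.0, 84.8 and 86.6 FPKM in co-culture replicates 1 to 3. The groups overlapped, and the means differed by 1.13% (85.5 ± 0.582 and 86.5 ± 1.59 FPKM, SD, n = 3; limma adjusted p = 0.738). The 95% interval of the difference ran from a fall of 3.77% to a rise of 6.23%.

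The isocitrate step has 2 mitochondrial enzymes, the NADP-dependent Idh2 and the NAD-dependent Idh3, whose catalytic subunit is Idh3a. Idh2 was at 81.3, 77.4 and 73.9 FPKM alone and 78.5, 75.6 and 79.6 FPKM in co-culture. The co-culture values fell inside the alone range, with means of 77.6 ± 3.69 and 77.9 ± 2.07 FPKM and an interval of the difference from -5.71% to 7.01% (limma adjusted p = 0.917). Idh3a was at 25.5, 24.6 and 25.5 FPKM alone and 22.3, 24.0 and 24.3 FPKM in co-culture. All 3 co-culture values were below the alone values, and co-culture replicate 1, the library with the fewest reads, was the lowest. The difference of -6.60% (25.2 ± 0.544 to 23.5 ± 1.05 FPKM) was not called (log2 change -0.10, SE 0.0422, limma adjusted p = 0.111).

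Alpha-ketoglutarate dehydrogenase is a large complex of the decarboxylase Ogdh, the succinyl transferase core Dlst, which carries lipoic acid, and the dihydrolipoamide dehydrogenase Dld. Ogdh had the tightest alone values of the 9 genes, 14.16, 14.21 and 14.18 FPKM, and stood at 14.9, 15.2 and 15.2 FPKM in co-culture. The groups did not overlap, but the rise in the mean of 6.34% was not called (log2 change 0.08, SE 0.038, limma adjusted p = 0.122), and its interval reached from -0.06% to 12.3%. Under quantile scaling it was called (limma adjusted p = 0.0434). Dlst went the other way, from 60.2, 58.4 and 60.7 FPKM alone to 57.3, 58.1 and 56.7 FPKM in co-culture. The groups again did not overlap, and the difference of -4.04% was not called (59.8 ± 1.24 and 57.4 ± 0.722 FPKM, limma adjusted p = 0.211). The ratio of Ogdh to Dlst FPKM, looked at after the values of both were seen, was 0.233 to 0.244 alone and 0.259 to 0.268 in co-culture. Other subunit ratios were looked at as well. Idh3b to Idh3a and Dld to Dlst also did not overlap between the groups, while Suclg1 to Sucla2 and Idh3g to Idh3a overlapped. None of these ratios was tested.

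Succinyl-CoA synthetase joins the shared alpha subunit Suclg1 to either of 2 beta subunits, Sucla2 for the ATP-forming enzyme or Suclg2 for the GTP-forming enzyme. Suclg1 was at 48.9, 46.1 and 44.8 FPKM alone and 46.6, 46.5 and 46.9 FPKM in co-culture. The co-culture libraries lay inside the alone range, with means of 46.6 ± 2.14 and 46.7 ± 0.223 FPKM and an interval from -5.59% to 6.46% (limma adjusted p = 0.951). Sucla2 was at 31.1, 28.7 and 29.1 FPKM alone and 29.4, 27.8 and 29.9 FPKM in co-culture, again overlapping. Its means were 29.7 ± 1.29 and 29.0 ± 1.08 FPKM, with an interval from -8.38% to 4.78% (limma adjusted p = 0.642).

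Fumarase, Fh1, hydrates fumarate to malate. It was at 38.7, 35.5 and 35.9 FPKM alone and 32.8, 35.8 and 38.3 FPKM in co-culture, and it had the widest spread of the 9 genes in both groups (coefficients of variation of 4.81% and 7.74%). The groups overlapped and the interval of the difference, from -10.8% to 5.84%, was the widest of the 9 on the log2 scale (limma adjusted p = 0.604).

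Malate dehydrogenase, Mdh2, closes the cycle by regenerating oxaloacetate and also serves the malate-aspartate shuttle. It had the highest FPKM of the 9 genes, above 95.6% of tested genes, with 123.3, 125.8 and 121.8 FPKM alone and 113.7, 118.5 and 113.5 FPKM in co-culture. Every co-culture library was below every alone library. The mean fell by 6.80% (123.6 ± 2.07 to 115.2 ± 2.81 FPKM, log2 change -0.10, SE 0.034, limma adjusted p = 0.0437), with an interval from -11.5% to -1.77%. A larger change in size was seen for 49.98% of tested genes. The call was not held in 9 of 16 other settings, although the direction was the same in all 16. Leaving out a library ended it for alone replicate 2 (limma adjusted p = 0.137) and 3 (0.0619) and for co-culture replicate 1 (0.147) and 3 (0.148). So did fitting with no filter on low genes (0.0665), quantile scaling (0.268), a fit without a variance trend (0.0973), the replicate number as a block (0.0679) and limma-voom (0.0513).

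Levels differ between the genes, but the order depends on the length used. From Mdh2 to Ogdh the alone means spanned 8.71-fold in FPKM. The lengths implied by the FPKM values were 1282 bp for Mdh2, 2979 bp for Cs, 7669 bp for Ogdh and 5556 bp for Idh2, the last 3.18 times the 1745 bp of the principal Idh2 transcript in GENCODE M21. Per length of the principal transcript, Idh2 had the highest alone level (247 ± 11.7 FPKM) ahead of Mdh2 (109 ± 1.82 FPKM), Ogdh rose to 26.4 ± 0.0470 FPKM and Fh1 was lowest (22.7 ± 1.09 FPKM). These levels divide reads counted on the authors' gene models by the length of another model, which need not cover the same sequence. The implied Idh2 length exceeded the 2588 bp of all its GENCODE exons. That of Fh1 (1632 bp) was below its principal transcript (2636 bp). The order per principal length is therefore uncertain as well. Changes between groups for a gene do not depend on the length used, apart from the small effect of the added 1 FPKM.

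Several members peaked in the same library of each group. The same 5 genes (Idh2, Idh3a, Sucla2, Suclg1 and Fh1) were highest in alone replicate 1 among the alone libraries and in co-culture replicate 3 among the co-culture libraries. For Idh3a, alone replicates 1 and 3 were nearly tied (25.509 and 25.507 FPKM). Alone replicate 1 and co-culture replicate 3 also had the highest FPKM summed over all genes in their groups (419360 and 412270, against 399010 to 402700 and 406190 to 407880). After each library was scaled to the same FPKM sum, 2 genes (Sucla2 and Fh1) kept that pattern. Over the 9 genes the summed level as deposited, without that scaling, was 508, 497 and 491 FPKM alone and 483, 486 and 491 FPKM in co-culture. On this unscaled sum the groups did not overlap but were separated by less than 1 FPKM at their closest (491.3 and 490.98).

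The rest of the cycle, 11 further genes in the table, had 3 genes called higher and 1 lower (36.4% called, against 31.8% of all tested genes; median log2 change 0.04). Ogdhl, a paralogue of Ogdh, had the largest change in the cycle, with 4.54, 4.66 and 5.13 FPKM alone and 6.652, 6.431 and 6.003 FPKM in co-culture. Every co-culture value was above the alone values, and the mean was 1.33-fold higher (log2 change 0.35, SE 0.0585, limma adjusted p = 0.00142), from a level well below that of Ogdh. Sdha, the flavoprotein of succinate dehydrogenase, was 1.10-fold higher (61.6 ± 1.92 to 67.6 ± 1.45 FPKM, adjusted p = 0.0192), while Sdhb (43.5 and 41.4 FPKM), Sdhc (77.2 and 79.0 FPKM) and Sdhd (54.0 and 55.9 FPKM), its other subunits, were not called. Idh3b, a subunit of the Idh3 enzyme, was 1.08-fold higher (43.9 ± 1.23 to 47.5 ± 1.35 FPKM, adjusted p = 0.0437) beside the uncalled difference of Idh3a in the opposite direction, and Idh3g (47.6 and 46.1 FPKM) was not called.

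Dld, which the alpha-ketoglutarate and pyruvate dehydrogenase complexes share, fell from 95.4, 88.4 and 92.3 FPKM alone to 82.6, 81.9 and 82.0 FPKM in co-culture. The groups did not overlap and the mean fell by 10.7% (limma adjusted p = 0.00705). Suclg2 (18.3 and 17.3 FPKM) and Mrps36 (25.1 and 25.8 FPKM) were not called. Dld and Ogdhl were called in all 16 other settings. For Idh3b, omitting any of 4 libraries (all but alone replicate 1 and co-culture replicate 2) ended the call, with limma adjusted p up to 0.157, as did 6 of the other settings. For Sdha, omitting alone replicate 3, or replicate 1 or 3 of the co-culture, did so (up to 0.0775), and without any of those the higher calls of this list numbered 1. In GENCODE M21, exons of Idh3b overlap those of Nop56, on the opposite strand, by 5 bp, and exons of Mdh1, the cytosolic counterpart of Mdh2, overlap those of Wdpcp, also on the opposite strand, by 52 bp. No source at hand states whether strand was used in counting.

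**Figure D2:**
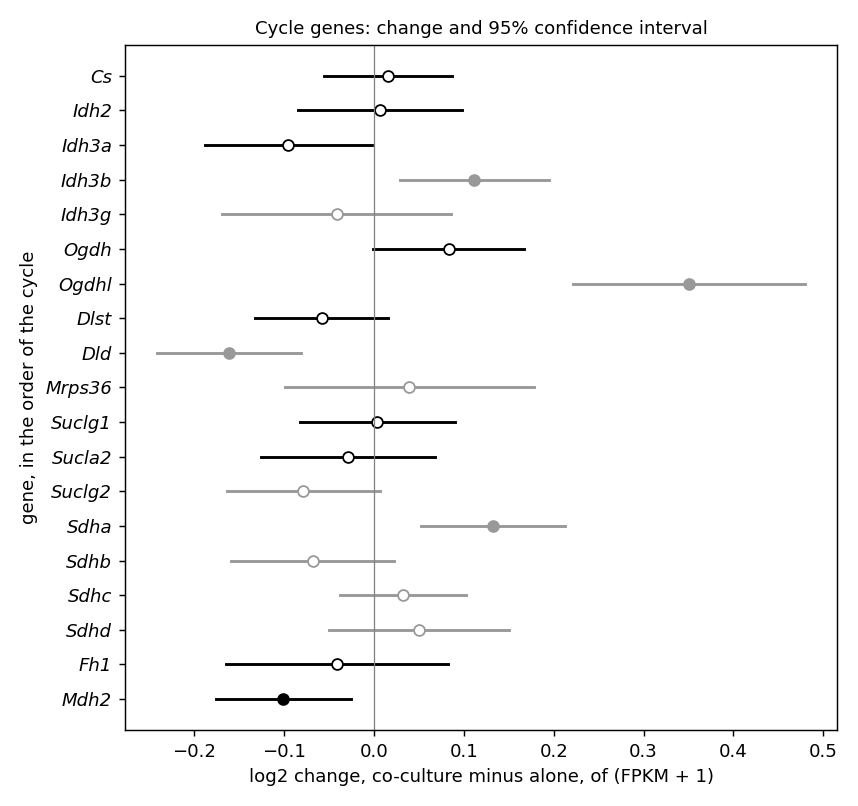
Points are log2 changes of (FPKM + 1), co-culture minus alone, and bars 95% confidence intervals from limma, for 19 genes in the order of the cycle. The 9 genes of the main set are black and the 10 others grey, filled where the adjusted p is below 0.05. Mdh2 is the 1 filled black point, and Ogdhl lies farthest from 0 at 0.35.

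Besides Ogdh and Ogdhl, 3 enzymes were set beside a related gene as a share of the summed FPKM of the pair. Sucla2 made up 61.8 ± 0.638% of the summed Sucla2 and Suclg2 FPKM alone and 62.7 ± 1.27% in co-culture (exact permutation p = 0.3). Mdh2 made up 67.9 ± 1.65% of the sum with its cytosolic counterpart Mdh1 alone and 66.6 ± 0.887% in co-culture (exact permutation p = 0.4). Idh2 made up 30.1%, 30.9% and 29.3% of the sum with the cytosolic Idh1 alone and 27.2%, 27.9% and 27.6% in co-culture. The Idh2 share did not overlap between the groups and was 2.52 percentage points lower (two-sided exact permutation p = 0.1, the smallest that 3 libraries against 3 allow; 0.3 adjusted over the 3 shares). Beside the uncalled Idh2, Idh1 was 1.14-fold higher (180 ± 7.91 to 205 ± 8.43 FPKM, limma adjusted p = 0.00965), a call lost with no filter on low genes (0.0618). Per length of the principal transcripts the Idh2 share was 56.4 ± 0.965% alone and 53.4 ± 0.475% in co-culture. The limit given above for levels on that length holds for this share too.

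**Figure D3:**
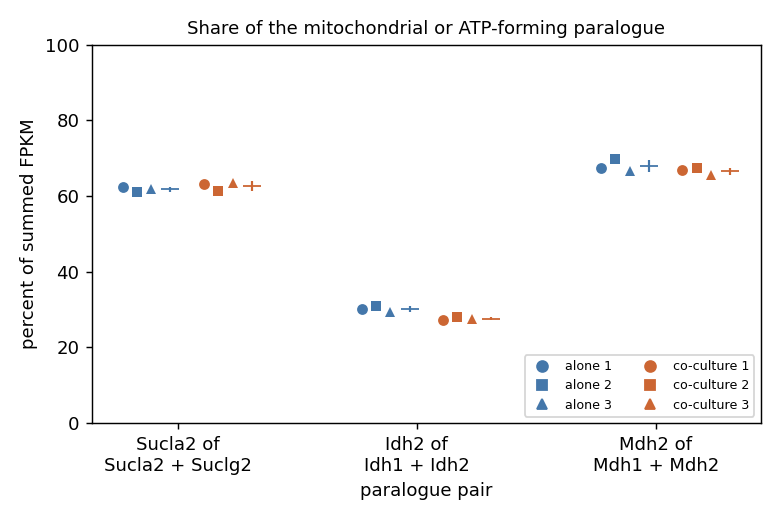
Each symbol is the percent that the first-named gene takes of the summed FPKM of a pair in 1 library, and the bar beside each group its mean and SD (n = 3). The Idh2 share lies between 29.3% and 30.9% alone and between 27.2% and 27.9% in co-culture, and the other pairs overlap.

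Genes that feed pyruvate into the cycle were called in both directions, 2 higher and 5 lower of 13 tested (53.8% called, against 31.8% of all tested genes). The pyruvate dehydrogenase complex turns pyruvate into acetyl-CoA, and kinases of the Pdk family switch it off while the Pdp phosphatases switch it on. Pdk1 fell from 16.4, 17.0 and 16.2 FPKM alone to 14.4, 13.9 and 14.5 FPKM in co-culture, and Pdp1 rose from 14.6, 13.0 and 13.0 to 17.8, 15.9 and 17.8 FPKM, neither with overlap (limma adjusted p = 0.00344 and 0.00223). Of the other kinases, Pdk4 had a higher FPKM than Pdk1 (50.9 alone and 53.4 in co-culture) and was not called. Pdk3 (6.34 and 6.82 FPKM) was not called either. Both were named after their values were seen. Dlat, the transacetylase core, fell by 11.7% (19.6 ± 0.543 to 17.3 ± 0.323 FPKM, adjusted p = 0.00818), and the catalytic subunit Pdha1 was at 120 and 119 FPKM and not called. Pdk2 was higher at a low level (0.975 and 1.48 FPKM, adjusted p = 0.0241). Its alone mean was below 1 FPKM, so it passed the filter only through the co-culture libraries. The 2 higher calls and the 53.8% include it. Mpc2, a subunit of the mitochondrial pyruvate carrier, was at 64.2 and 68.9 FPKM and not called. The remaining lower calls, named after their values were seen, were Pdhx, Mpc1 and Pdp2. Each of these, and Pdk2, lost its call without 3 or 4 of the libraries and with no filter on low genes. Pdhx also lost it with TPM or quantile scaling, without a variance trend and with the replicate block, and Mpc1 with quantile scaling and in limma-voom. The 2 higher calls numbered 1 on omitting alone replicate 3 or replicate 1 or 2 of the co-culture, and the 5 lower calls 2 without alone replicate 3 and 3 without co-culture replicate 2 or 3.

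Enzymes that drain or refill the cycle were called in both directions. Gpt2, the mitochondrial alanine aminotransferase, which makes alpha-ketoglutarate from glutamate, was at 14.5, 14.6 and 14.7 FPKM alone and 9.57, 9.85 and 8.94 FPKM in co-culture. Pck2, the mitochondrial phosphoenolpyruvate carboxykinase, which withdraws oxaloacetate, was at 46.1, 44.5 and 45.7 FPKM alone and 31.4, 33.2 and 29.6 FPKM in co-culture. For both, every co-culture library was below every alone library. Gpt2 fell by 35.1% (limma adjusted p = 1.13e-05) and Pck2 fell by 30.9% (limma adjusted p = 1.68e-05). Pcx, pyruvate carboxylase, which makes oxaloacetate from pyruvate, rose from 46.9, 47.6 and 48.9 FPKM alone to 53.6, 53.2 and 53.3 FPKM in co-culture (11.6% higher, adjusted p = 0.00542). The glutamate carrier Slc25a22 and the aspartate-glutamate carrier Slc25a13 fell (adjusted p = 0.0148 and 0.0157), the first not called without alone replicate 2 (0.0578) and the other, named after its value was seen, not called without co-culture replicate 1 (0.0529). Neither was called with no filter on low genes (0.0636 and 0.0946). In all, 1 of 13 tested genes of this list was higher and 4 were lower (38.5% called, against 31.8% of all tested genes). Glud1 (56.7 and 59.6 FPKM) and Got2 (83.6 and 85.2 FPKM), which interconvert glutamate and alpha-ketoglutarate, were not called.

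Among 6 cytosolic counterparts, 1 was higher (Idh1) and 2 were lower, beside 13.9% and 17.9% of all tested genes. Got1, the cytosolic aspartate aminotransferase, fell from 35.8, 34.3 and 36.3 FPKM alone to 25.4, 26.0 and 23.8 FPKM in co-culture, a change of -29.4% without overlap (limma adjusted p = 2.21e-05). Malic enzyme, Me1, fell by 14.9% (16.7 ± 1.09 to 14.2 ± 0.742 FPKM, limma adjusted p = 0.0123, and 0.0728 with no filter). Mdh1, the partner of Got1 in the malate-aspartate shuttle, was at 58.4 and 57.9 FPKM and not called. Of 8 genes for lipoic acid attachment and succinate dehydrogenase assembly, 1 was higher and 1 lower (25% called, against 31.8% of all tested genes). Sdhaf4, an assembly factor for Sdha, was 1.19-fold higher (13.7 ± 0.506 to 16.2 ± 1.15 FPKM, adjusted p = 0.00754) and Gcsh, a lipoyl carrier protein, fell by 13.5% (27.5 ± 0.810 to 23.8 ± 1.56 FPKM, adjusted p = 0.0105). With no filter neither was called (0.0639 for Gcsh), nor was Sdhaf4 in limma-voom (up to 0.0530). Sdhaf2 was at 16.6 and 17.5 FPKM and not called.

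Of 12 tested genes for abundant mitochondrial proteins 0 were called higher and 5 lower by limma (1 and 6 at an unadjusted p below 0.05; 0 and 5 in limma-voom), with a median log2 change of -0.09. That is 41.7% called, against 31.8% of all tested genes. The chaperone Hspd1 fell by 22.3% (211 ± 4.62 to 164 ± 14.3 FPKM, limma adjusted p = 7.02e-04) and the chaperone Hspa9 fell by 19.0% (221 ± 1.80 to 179 ± 10.1 FPKM). The outer-membrane channel Vdac3 fell by 20.8% (112 ± 2.11 to 88.5 ± 1.64 FPKM) and cytochrome c, Cycs, fell by 22.6% (19.6 ± 1.18 to 15.2 ± 0.636 FPKM). Phb, named after its value was seen, also fell, but its call was lost on omitting any of 5 libraries, with no filter, with quantile scaling, without a variance trend and with the replicate block (adjusted p up to 0.142). Among those not called, named likewise after their values were seen, Vdac1 was at 131 and 125 FPKM and Vdac2 at 139 and 145 FPKM. Tomm20, an outer-membrane import receptor, was at 48.6 and 51.9 FPKM, higher in every co-culture library than in any alone library (limma adjusted p = 0.0669). Of 7 tested regulators of mitochondrial biogenesis 0 were called higher and 3 lower (0 and 4 unadjusted; 0 and 3 in limma-voom, with Esrra not among the 3). That is 42.9% called. Myc fell from 98.4, 95.4 and 96.9 to 83.5, 77.6 and 87.0 FPKM (limma adjusted p = 0.00275). Pprc1 fell by 12.6% (limma adjusted p = 0.0166) and Esrra fell by 11.2% (limma adjusted p = 0.0495). Pprc1 was not called without alone replicate 2 or co-culture replicate 3 (up to 0.0688), and Esrra not without 5 of the libraries (up to 0.171). Esrra was also not called with no filter, TPM or quantile scaling, the replicate block or limma-voom (up to 0.0945), and the count of 3 was 1 without alone replicate 2 or co-culture replicate 3. Yy1 was at 20.1 and 19.5 FPKM and not called, and Ppargc1a, named after its values were seen, was at 0.738 and 0.752 FPKM, below the level tested.

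**Figure D4:**
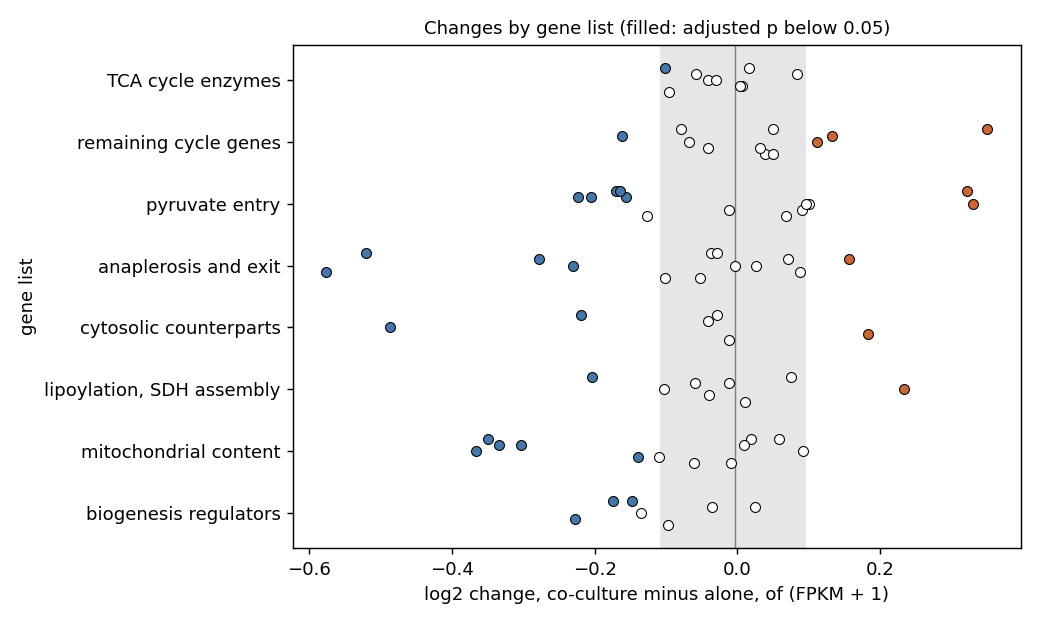
Each point is 1 tested gene, placed by its log2 change of (FPKM + 1), co-culture minus alone, within its list, with vertical offsets for legibility only. Blue is called lower, orange called higher, white not called; the grey band spans the quartiles of all 10055 tested genes (-0.11 to 0.09) and the line their median. All 9 cycle enzymes of the main set lie inside the band, while Gpt2, Pck2 and Got1 lie farthest to the left.

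In GRCm38 (mm10) coordinates from RefSeq, counted from 1, Cs lies on chromosome 10 from 128337727 to 128362482, Idh2 on chromosome 7 from 80094845 to 80118608, Idh3a on chromosome 9 from 54586511 to 54604662, and Ogdh on chromosome 11 from 6291597 to 6359094. Dlst lies on chromosome 12 from 85110822 to 85134091, Sucla2 on chromosome 14 from 73552786 to 73596144, Suclg1 on chromosome 6 from 73248505 to 73276907, Fh1 on chromosome 1 from 175601378 to 175625635, and Mdh2 on chromosome 5 from 135778649 to 135790386. The exons of these 9 genes overlap those of 0 other genes in GENCODE M21. For Idh2 and Ogdh the implied lengths (5556 and 7669 bp) exceeded all their GENCODE exons together (2588 and 5456 bp). Sequence counted outside those exons was not checked for overlap.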

How the data were processed

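The authors deposited 1 FPKM value per gene and library for 6 libraries. Read trimming, alignment and counting tools are listed as fastp, HISAT2 and HTSeq, with build mm10, per the submitters' processing notes; versions, annotation and strand setting were not given in the sources used. The 6 value columns carry the sample descriptions (0 others). Reads per gene were recovered from the ratios between libraries (all 21436 genes resolved, tolerance 1e-06), scaled with the 1545 bp of the mitochondrial cytochrome oxidase gene COX1. The share of 12045 genes with at least 100 reads that gave a whole-number length was 99.17%, and 100.0% after common factors.

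Differences were fitted by limma 3.58.1 (R 4.3.3; moderated with a mean-variance trend) to log2(FPKM + 1) of genes averaging 1 FPKM or more, without a replicate block, and the script was tested on simulated data. Fold changes are ratios of mean FPKM. Alternatives covered the pseudocount (0.1, 0.01), filter, scaling, variance model, replicate block, limma-voom on the reads, and each library left out. Lengths of principal transcripts were tried after the data were seen. Named were the 9 members, the rest of the cycle, and from each other list up to 4 called genes by smallest p and the 2 highest. Exceptions are marked. Members and lists were chosen with earlier results of these data known. Of the 11 remaining cycle genes, 1 is counted in its list but not reported here.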

Additional observations from a re-analysis of the deposited data

How the results depend on the processing

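Over the 9 enzymes and 16 settings (144 values), 11 changed sign, 9 lost a call (all Mdh2), 1 gained one, and the others kept both. The count of enzymes called lower, 1, was 0 with no filter, quantile scaling, no variance trend, the replicate block or limma-voom, and 0 to 1 when each library was left out. The count called higher, 0, was 1 (Ogdh) with quantile scaling, and 0 otherwise. Sign changes were confined to the 4 genes Idh2 (-0.0016 with median-ratio scaling, -0.0091 without co-culture replicate 3; -0.0272, without alone replicate 3, to 0.0406 with each library left out), Sucla2 (0.0049 without alone replicate 1, 2e-04 without co-culture replicate 2; -0.0515 to 0.0049), Suclg1 (-0.0043 with median-ratio scaling, -0.0027 with TPM scaling, -0.0036 and -0.0242 without alone replicates 2 and 3, -2e-04 without co-culture replicate 3; -0.0242 to 0.0389) and Fh1 (0.0154 without co-culture replicate 1; -0.0935 to 0.0154). None of these was called with either sign. The median change of all genes lay between -0.0121 and 0.0127 in all settings.

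With each library left out in turn, called genes numbered 1 to 4 higher among the remaining cycle genes, 1 to 2 higher and 2 to 4 lower for pyruvate entry, 0 to 1 higher for abundant mitochondrial proteins and 1 to 3 lower for the biogenesis regulators. Of the 29 called genes outside the main set, 18 were called without each library. The causes were not tested. Same-numbered libraries did not deviate together (correlations -0.04, 0.11 and -0.08), so the replicate numbers were not taken as pairs. With the replicate block 0 of the 9 enzymes were called in either direction. The members had 1585 reads or more in each library, and each group had 3 libraries.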
